A study of Mus musculus with 35 samples.

Results

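Liver transcripts were compared between mice with late and early animal numbers within the lower dose groups of a styrene inhalation study. The number that follows LP in each array's title was read as the animal number. In the groups of 0, 1, 5 and 10 ppm, numbers 1, 2, 3, 9, 10, 11, 17, 19, 26 and 27 were called early (10 arrays) and numbers 6, 8, 13, 15, 22, 23, 29 and 30 late (8 arrays). These are 18 of the 35 arrays of the series, and numbers 20 and 28, which lie between, were left out. The labels do not say what the number stands for. The split serves as a stand-in for the order of killing within a group, an order the labels do not give, so late and early refer here to numbers and not to recorded clock times.

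All mice were wild type adult C57Bl/6 males, an inbred laboratory strain, kept in light from 7 AM to 7 PM with food at all times. Mice were caged singly and breathed air (0 ppm) or styrene, the monomer of polystyrene, in 1 session of 6 hours. They were killed by pentobarbital and bleeding on the morning after. Each mouse gave 1 liver RNA sample and 1 Affymetrix 3' expression array. Air and 1 ppm had 3 early and 2 late mice each, and 5 and 10 ppm had 2 early and 2 late mice each. The remaining 15 arrays came from 20, 40 and 120 ppm.

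Liver cells keep a daily clock. The proteins BMAL1 (from Arntl) and CLOCK or NPAS2 bind E-box sequences and switch on the Per, Cry and Rev-erb genes and the D-box factors Dbp, Tef and Hlf. PER and CRY proteins then shut off BMAL1 and CLOCK, the REV-ERB proteins repress Arntl, Npas2 and Nfil3 through RORE sequences, and NFIL3 opposes the D-box factors. In the liver of a mouse fed at will, Arntl and Npas2 peak around the start of the light phase, Nfil3 falls during the light phase, and Dbp, Tef, the Rev-erb genes and Per3 climb from a trough in the morning. A change over the morning is an established feature of this tissue.

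Values are the deposited log2 levels, and a change is late minus early in log2 units, averaged over the 4 doses with dose as a block. A gene was read on its brightest probe set (a group of short probes for 1 transcript) that names it alone, and called at a Benjamini-Hochberg adjusted p under 0.05 in limma over all 45037 probe sets. Array medians lay between 3.476 and 3.555, and correlations between pairs of arrays between 0.971 and 0.9947. Animals 17 and 27, both early, correlated least with the others. On the first principal component after removal of dose means (33.5% of the variance) animals 17, 27 and 13 stood apart at 62.7, 48.9 and 38.7. On the second (12.2%) the late arrays lay between 3.03 and 24.5 and the early arrays between -24 and 6.35, and animal 27 was the early array inside the late range. Of 17 summary values per array, including the array median, the RNA integrity ratios of actin and GAPDH and the summed markers of 13 cell or tissue types, none differed between late and early arrays after adjustment (lowest adjusted p = 0.2385, two-sided exact permutation within doses). The smallest unadjusted values were those of periportal hepatocyte markers (0.06 higher in late, exact permutation p = 0.0278), endothelial markers (0.13 higher, p = 0.0417) and erythroid markers (0.23 lower on the summed log2 scale, p = 0.0436). The part of these 3 in the results below was not tested. The normalization of the deposited values brings arrays to a common scale, so the test of the array median could show little. Hepatocyte markers summed to between 16.52 and 16.58 in early and between 16.52 and 16.59 in late arrays. Marker sums of whole tissue cannot tell fewer cells of a type from less RNA per cell.

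Late arrays differed from early ones in 713 probe sets (1.58% of those tested), 318 higher (0.706%) and 395 lower (0.877%), and 5054 probe sets had an unadjusted p under 0.05. Read by gene, 375 of 17097 were called (2.19%), 165 higher (0.965%) and 210 lower (1.23%). The median change of all genes was 0.00469. Of the called genes, 138 changed at least 1.5-fold, 68 upward and 70 downward, and 35 at least 2-fold. The direction was the same at all 4 doses in 373 of the 375, against 3263 of all genes (19.1%); the call rests on the mean of the same 4 doses, so this count is a description. In 85 of the called genes the late and early ranges did not overlap, against 90 of all genes (0.526%). This count rests on the same arrays and split as the call and is likewise a description. No probe set differed in its late minus early value among the 4 doses (0 called by limma's F test, 1698 at an unadjusted p under 0.05).

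Among the 11 measured genes of the clock's light-phase arm, 5 rose (Dbp, Nr1d2, Tef, Per3 and Bhlhe40) and none fell, and the median change was 0.18. Of all genes 0.965% were called higher, and their median change was 0.00469. Dbp, a D-box activator, changed most of all genes called. In air it was 2.98, 3.18 and 2.80 in the early mice and 6.71 and 7.20 in the late mice. At 1 ppm it was 2.85, 2.94 and 4.34 against 5.74 and 5.90, at 5 ppm 3.31 and 3.04 against 7.02 and 7.54, and at 10 ppm 4.05 and 5.49 against 6.51 and 7.14. Every late array lay above every early array, and the highest early value was that of animal 27. The change was 3.15 ± 0.29 (SE, n = 8 late and 10 early), an 8.89-fold rise (limma adjusted p = 0.000172). In 7 of the 10 early arrays, and in no late array, Dbp lay below the median of all probe sets on its array. Early values are thus near the floor of the scale, and the fold may understate the rise. Animals 20 and 28, which were left out, had 3.42 and 3.79, on the early side.

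Nr1d2, which encodes the repressor REV-ERB beta, was between 6.50 and 8.34 in early arrays (median 7.74) and between 8.36 and 9.84 in late arrays (median 9.22). The ranges did not overlap, and the rise was 1.54 ± 0.22 (SE, adjusted p = 0.0015, limma). Tef, a D-box activator of the same family as Dbp, was between 7.25 and 8.55 in early (median 7.59) and between 8.44 and 9.02 in late arrays (median 8.69). Its 1 early value inside the late range was again animal 27, and without that array the highest early value was 7.77. Tef rose by 1.02 ± 0.12 (adjusted p = 0.000369). Per3, a member of the period family, was between 2.97 and 4.73 in early arrays (median 3.66) and between 4.33 and 5.15 in late arrays (median 4.74), a rise of 0.95 ± 0.16 (adjusted p = 0.00378). Of its 5 probe sets, 3 were called and the changes ran from -0.08 to 0.95. The lowest early values of Per3 lay near the floor of the scale. Bhlhe40, the repressor DEC1, was between 7.57 and 9.20 in early and between 8.72 and 9.29 in late arrays and rose by 0.72 ± 0.16 (adjusted p = 0.0234). The ranges overlapped, and the call was lost (highest adjusted p = 0.0648) without any 1 of late animals 6, 22 and 23.

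The other 6 members of this arm did not pass. Per1, the period gene that also answers to glucocorticoids, was between 5.75 and 7.00 in early and between 5.24 and 6.56 in late arrays, with a change of -0.36 ± 0.17 (limma adjusted p = 0.446). Per2 had a change of -0.14 ± 0.13 and Ciart, a repressor of BMAL1 and CLOCK, of 0.05 ± 0.12. Hlf, the third D-box activator, had 0.13 ± 0.09, and Usp2, a rhythmic enzyme that removes ubiquitin, 0.18 ± 0.20. Bhlhe41 had -0.02 ± 0.08 at a level near 3. Ciart, between 2.95 and 3.83 in early and between 3.18 and 3.65 in late arrays, and Bhlhe41 lay near the floor of the scale, where a change can be missed. The 6 had changes from -0.36 to 0.18 and adjusted p of 0.446 or above.

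**Figure D1:**
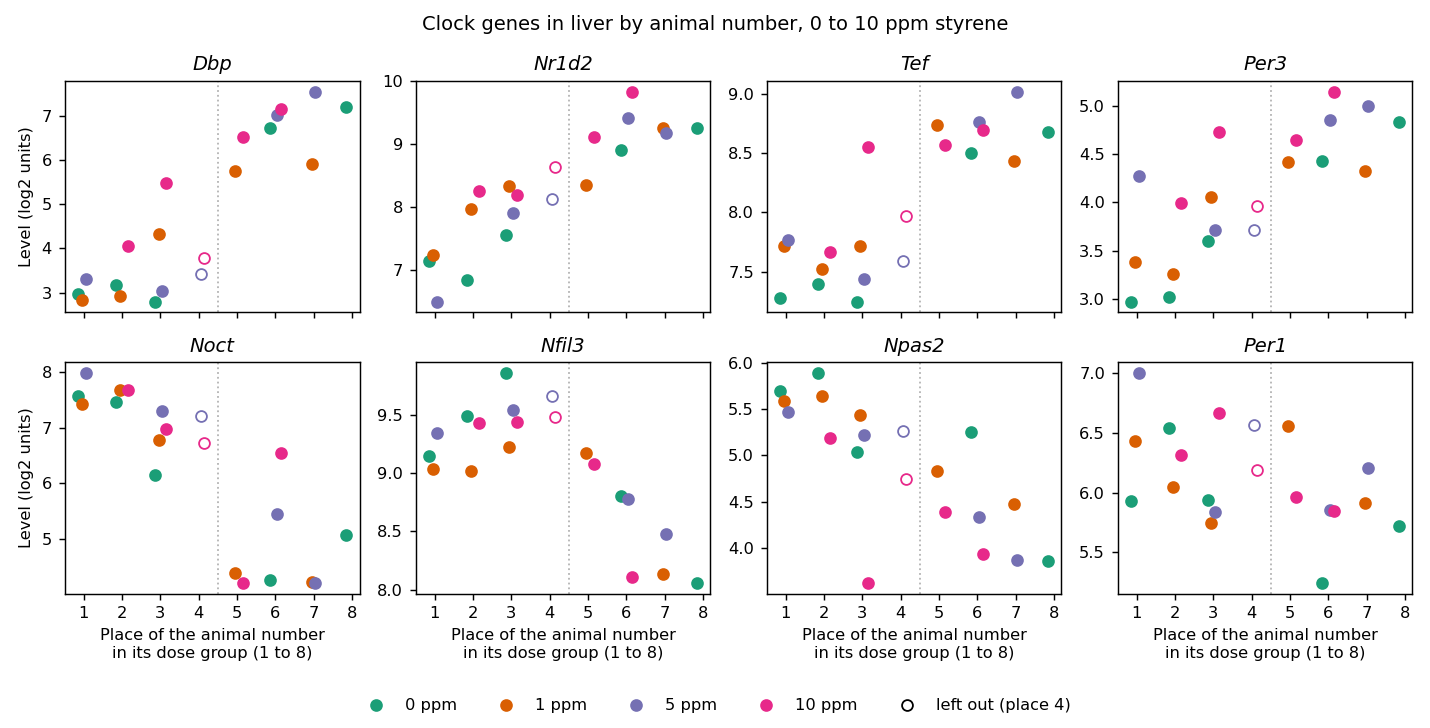
Level (log2 units) of 8 clock genes against the place of each animal number in its dose group, 1 to 8, for the 20 arrays of 0 to 10 ppm. Each point is 1 mouse, colours are doses, open circles are animals 20 and 28, and the dotted line divides early from late. Dbp, Nr1d2, Tef and Per3 were higher and Noct and Nfil3 lower to the right of the line, while Npas2 (adjusted p = 0.0589) and Per1 did not pass.

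Promoters of the called clock and heat shock genes (5 that rose, Nfil3 and Bag3 that fell) were read for 4 motifs of clock and heat shock factors. RefSeq's table for GRCm38.p6 held 6 of the 7 genes, and the 250 bases before the start of transcription were searched on both strands. The motifs were the E-box CACGTG, the D-box TTATGTAA or TTATGCAA, the heat shock element GAANNTTC and AGGTCA, the core of the RORE. Bases beside this core were not searched, so a match to it need not be a full RORE. Of all 32851 promoters in the table, 6.02% held the E-box, 1.5% the D-box, 6.69% the heat shock element and 14% the RORE core. Those that held a match are shown 5′ to 3′ along the gene, with the match in capitals.
Per3, chr4:151044666-151044915, minus strand: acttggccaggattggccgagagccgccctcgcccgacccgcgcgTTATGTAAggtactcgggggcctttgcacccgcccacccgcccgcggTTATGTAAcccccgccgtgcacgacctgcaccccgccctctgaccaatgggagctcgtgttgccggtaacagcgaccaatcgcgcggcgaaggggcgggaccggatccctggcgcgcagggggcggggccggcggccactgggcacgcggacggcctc
Tef, first start, chr15:81802423-81802672, plus strand: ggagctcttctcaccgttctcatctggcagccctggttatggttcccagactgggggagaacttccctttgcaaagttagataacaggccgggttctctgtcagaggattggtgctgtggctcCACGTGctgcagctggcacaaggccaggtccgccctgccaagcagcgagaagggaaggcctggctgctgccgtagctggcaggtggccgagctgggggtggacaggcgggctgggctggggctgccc
Tef, another start, chr15:81811164-81811413, plus strand: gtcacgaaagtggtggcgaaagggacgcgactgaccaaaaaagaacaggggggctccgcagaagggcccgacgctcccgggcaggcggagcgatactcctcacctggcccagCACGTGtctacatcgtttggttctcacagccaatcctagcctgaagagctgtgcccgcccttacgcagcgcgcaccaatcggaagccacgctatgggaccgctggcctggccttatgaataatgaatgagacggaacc
Nr1d2, chr14:18239107-18239356, minus strand: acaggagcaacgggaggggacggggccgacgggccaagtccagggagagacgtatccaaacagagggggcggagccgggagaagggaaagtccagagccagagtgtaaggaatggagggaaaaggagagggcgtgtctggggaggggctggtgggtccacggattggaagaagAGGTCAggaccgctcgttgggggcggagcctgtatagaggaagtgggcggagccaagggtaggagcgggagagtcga
Nfil3, chr13:52981040-52981289, minus strand: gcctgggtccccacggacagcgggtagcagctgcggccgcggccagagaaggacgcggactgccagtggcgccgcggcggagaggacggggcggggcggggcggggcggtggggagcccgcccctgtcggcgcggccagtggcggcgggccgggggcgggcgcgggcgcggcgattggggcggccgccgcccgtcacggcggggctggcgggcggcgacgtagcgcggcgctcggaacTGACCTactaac

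Per3, which rose, held 2 D-boxes that begin 205 and 158 bases before the start. Each of the 2 Tef promoters held 1 E-box, 127 and 138 bases before its start. Nr1d2 held the RORE core 77 bases before the start, and Nfil3 held it on the opposite strand 12 bases before the start, read as TGACCT. The upstream windows of Dbp and Bag3 held none of the 4 motifs, which says only that these letters are not in these windows. A match is a description of the sequence, and no binding was measured here.

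The dawn-peaking arm of the clock moved the other way in 1 of its 5 measured genes (1.23% of all genes were called lower), and its median change was -0.52. Nfil3, the repressor that competes with Dbp, Tef and Hlf, was between 9.02 and 9.86 in early arrays (median 9.39) and between 8.06 and 9.17 in late arrays (median 8.63). It fell by 0.78 ± 0.16 (SE, limma adjusted p = 0.0159), a 1.72-fold fall, with a small overlap of the ranges. Npas2, a partner of BMAL1, was between 3.62 and 5.89 in early and between 3.87 and 5.25 in late arrays. Its change was -0.85 ± 0.22 and did not pass (adjusted p = 0.0589). Its lowest early value, 3.62, was that of animal 27, and the next lowest early value was 5.04. The call was made without any 1 of animals 6, 27 and 29. It was also made with brighter probe sets only, with array weights and with limma's intensity-dependent prior. The same held with numbers 20 and 28 as early, with a slope on place, and without the 10 ppm arrays. Cry1, a repressor of BMAL1 and CLOCK, changed by -0.52 ± 0.17 (adjusted p = 0.161), Arntl by -0.30 ± 0.12 (adjusted p = 0.342) and Clock by 0.03 ± 0.15. None of these 3 passed in the main fit.

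Of 20 measured rhythmic output genes, 1 rose and 5 fell, against 0.965% and 1.23% of all genes. Rgs16, which ends signalling by G proteins, was between 3.06 and 7.37 in early arrays (median 4.82) and between 6.24 and 7.72 in late arrays (median 6.67). The single early array in the late range was animal 2, an air mouse at 7.37. Rgs16 rose by 2.13 ± 0.40 (SE, limma adjusted p = 0.00905). Noct, which encodes nocturnin, was between 6.15 and 7.99 in early arrays (median 7.45) and between 4.20 and 6.55 in late arrays (median 4.31). It fell by 2.56 ± 0.30 (adjusted p = 0.000306), a 5.91-fold fall, and the late array in the early range was animal 30 at 6.55. The other falls were those of Tfrc, the transferrin receptor, at -1.22, Alas1, the rate-limiting enzyme of heme synthesis, at -1.19, Slc45a3 at -0.65 and Leo1 at -0.42. Slc45a3 was lost without any 1 of late animals 6, 8 and 15 (highest adjusted p = 0.0617, limma). Alas1 was just past the threshold (adjusted p = 0.0481) and was lost without any 1 of 14 of the 18 arrays (highest adjusted p = 0.122). Of the 3 probe sets for Tfrc, 1 was called, and it was lost when a slope on the place in the dose group took the place of the split.

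Outside the clock lists, Arrdc3, Ppargc1b and Mycl showed the largest rises. Arrdc3, an arrestin-domain protein, was between 5.74 and 8.68 in early (median 7.74) and between 8.87 and 9.46 in late arrays (median 9.33). The ranges did not overlap and the rise was 1.72 ± 0.38 (SE, limma adjusted p = 0.0272). The call was lost without any 1 of 5 late arrays (animals 6, 8, 15, 22 and 23, highest adjusted p = 0.0709). Ppargc1b, the coactivator PGC-1 beta, was between 5.53 and 7.02 in early (median 6.42) and between 7.52 and 8.06 in late arrays (median 7.91), with no overlap, and rose by 1.35 ± 0.15 (adjusted p = 0.000186). Mycl, a transcription factor of the MYC family, was between 3.89 and 5.12 in early and between 5.52 and 6.14 in late arrays and rose by 1.30 ± 0.14 (adjusted p = 0.000172). Of the 3 probe sets for Mycl, 1 was called, and the changes ran from 0.38 to 1.30. Slc8b1, the mitochondrial sodium and calcium exchanger, was between 6.35 and 7.37 in early and between 7.49 and 8.30 in late arrays, a rise of 1.06 ± 0.11 (adjusted p = 0.000172). Neither gene had overlapping ranges.

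The remaining genes among the 12 largest rises were Clec2h, a C-type lectin (1.14), Retreg1, a receptor for autophagy of the endoplasmic reticulum (1.07), Tns2, a tensin of cell adhesions (1.03), and Bmf, a BH3-only cell death protein (1.01). Tns2 was between 6.42 and 7.73 in early and between 7.78 and 8.18 in late arrays, without overlap. The ranges of Clec2h, Retreg1 and Bmf overlapped. Of the 3 probe sets for Bmf, 1 was called.

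The largest falls after Noct were those of Bhlha15, Mvd and Bcl6. Bhlha15, the secretory cell transcription factor MIST1, was between 3.45 and 6.21 in early (median 4.66) and between 2.82 and 3.57 in late arrays (median 3.20). It fell by 1.58 ± 0.31 (SE, limma adjusted p = 0.0116), and 1 of its 2 probe sets was called. Its late values lay near the floor of the scale, so the size of the fall is uncertain. Mvd, an enzyme of the mevalonate pathway, was between 6.15 and 7.75 in early (median 7.34) and between 5.26 and 6.48 in late arrays (median 5.68), a fall of 1.55 ± 0.19 (adjusted p = 0.000455). Bcl6, a transcriptional repressor, was between 6.63 and 9.30 in early (median 8.74) and between 6.20 and 8.75 in late arrays (median 6.64). It fell by 1.53 ± 0.33 (adjusted p = 0.0222) with wide overlap, and the call was lost without any 1 of animals 8, 26 and 29 (highest adjusted p = 0.0623).

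Slc34a2, a sodium and phosphate cotransporter, and Aacs, acetoacetyl-CoA synthetase, fell without overlap. Slc34a2 was between 4.04 and 6.01 in early and between 3.33 and 3.87 in late arrays, a fall of 1.29 ± 0.21 (SE, limma adjusted p = 0.00408). Its late values lay near the floor of the scale. Aacs was between 6.56 and 8.23 in early and between 5.41 and 6.26 in late arrays, a fall of 1.24 ± 0.18 (adjusted p = 0.00157), on 1 of its 2 probe sets. The others of the 12 were Gm16551 (-1.45), Nrep (-1.43) and Vasn, which binds TGF-beta (-1.40). Nrep and Bhlha15 were lost with a slope on the place in the dose group. Across the 24 genes with the largest rises and falls, the direction held at each of the 4 doses, and the ranges did not overlap in 9. Of all genes, 19.1% held their direction and 0.526% had ranges that did not overlap, but these 24 were chosen for the size of their change.

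**Figure D2:**
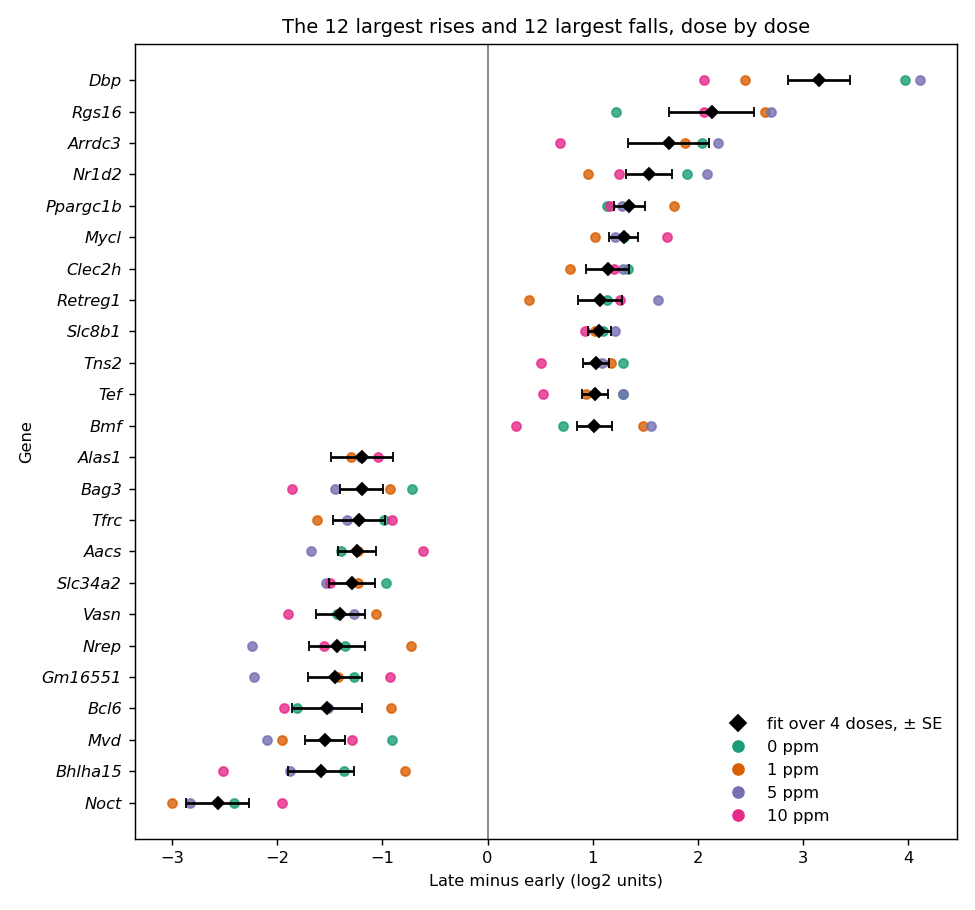
Late minus early (log2 units) of the 12 largest rises and 12 largest falls. Black diamonds with bars are the fit over 4 doses ± SE, and coloured points are the differences at single doses, each from 2 late and 2 or 3 early mice. Every coloured point lies on the side of its diamond, and Dbp ranges from 2.06 at 10 ppm to 4.11 at 5 ppm.

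Heat shock genes respond to heat and other stress within hours. Of 14 measured, 1 fell (1.23% of all genes were called lower), none rose, and the median change was -0.04. Bag3, a co-chaperone of HSP70, was between 7.997 and 9.67 in early (median 8.78) and between 7.18 and 8.09 in late arrays (median 7.76). It fell by 1.20 ± 0.21 (SE, limma adjusted p = 0.00559). Hspa1b, an inducible HSP70, was between 9.78 and 11.78 in early and between 8.03 and 10.83 in late arrays, with a change of -1.44 ± 0.37 that did not pass (adjusted p = 0.0651). It passed when dim probe sets were left out, and without animal 6 or animal 13. It also passed with array weights, with limma's intensity-dependent prior, with a slope on place, and with numbers 20 and 28 as early. Dnajb1, an HSP40, changed by -0.41 on its brightest probe set (adjusted p = 0.226), while its other probe set was called at -1.01. Hspa8, the constitutive HSC70, changed by -0.12, and 1 of its other probe sets was called at -2.14. Hsp90aa1 changed by -0.03, Hsph1 by -0.18 and Hspb1 by 0.02. The cold-inducible RNA binding genes Cirbp and Rbm3, which answer to body temperature, changed by 0.05 ± 0.16 and -0.01 ± 0.16.

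Genes of the unfolded protein response, which restores folding in the endoplasmic reticulum, showed 4 falls and no rise among 20 measured, and 19 of the 20 had a change below 0 (median -0.20). Over all genes 1.23% were called lower, 48.3% had a change below 0 and the median was 0.00469. Dnajb9, a co-chaperone of the lumen, was between 9.93 and 11.32 in early (median 10.66) and between 8.80 and 10.01 in late arrays (median 9.62), a fall of 1.11 ± 0.18 (SE, limma adjusted p = 0.003). Ddit3, the stress factor CHOP, was between 5.62 and 7.04 in early and between 4.93 and 5.87 in late arrays, a fall of 0.95 ± 0.19 (adjusted p = 0.0149). Atf4, the transcription factor upstream of it, was between 9.41 and 10.25 in early and between 8.98 and 9.31 in late arrays. It fell by 0.56 ± 0.10 without overlap (adjusted p = 0.00732), and its other probe set changed by -0.02. Manf, a secreted protein of the same response, fell by 0.40 ± 0.09 (adjusted p = 0.0303), and this call was lost without any 1 of 10 of the 18 arrays (highest adjusted p = 0.0886).

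Of 16 measured genes of cholesterol synthesis, 2 fell and none rose (1.23% of all genes were called lower), 13 had a change below 0 (48.3% of all genes), and the median was -0.15. These were Mvd and Hmgcs1, the synthase at the head of the pathway. Hmgcs1 was between 3.38 and 4.36 in early and between 2.64 and 3.29 in late arrays, a fall of 0.73 ± 0.13 (SE, limma adjusted p = 0.00609) near the lower end of the scale, a call lost with all 35 arrays in the fit. Insig1, which holds the SREBP activators in the endoplasmic reticulum, changed by -0.40 ± 0.10 and did not pass (adjusted p = 0.0548). Of 16 measured genes of fatty acid synthesis, 1 fell, and the median was 0.02. That was Fasn, fatty acid synthase, which was between 9.55 and 10.44 in early and between 8.99 and 9.41 in late arrays and fell by 0.71 ± 0.11 without overlap (adjusted p = 0.00239).

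Tubulins accounted for the calls of the cytoskeleton list, in which 3 of 15 measured genes fell and none rose (median -0.21). Of all genes 1.23% were called lower. Tubb2a was between 10.45 and 11.03 in early and between 9.21 and 10.43 in late arrays and fell by 0.75 ± 0.13 (SE, limma adjusted p = 0.00559), a call lost with all 35 arrays in the fit. Tubb4b was between 9.75 and 10.09 in early and between 9.36 and 9.73 in late arrays and fell by 0.37 ± 0.07 (adjusted p = 0.00775). Neither had overlapping ranges. Tuba1c fell by 0.31 ± 0.06 (adjusted p = 0.00889). Related tubulin genes are close in sequence, and the probes were not checked for shared matches.

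Single members of other lists, and Ppara, were called, where 0.965% of all genes were called higher and 1.23% lower. Klf9, a transcription factor that answers to glucocorticoids and follows the clock, was between 9.90 and 10.37 in early and between 10.42 and 10.93 in late arrays, without overlap, and rose by 0.50 ± 0.06 (SE, limma adjusted p = 0.000551). Of its 5 probe sets, 1 was called. Tat, tyrosine aminotransferase of hepatocytes, was between 12.14 and 12.55 in early and between 11.68 and 12.21 in late arrays and fell by 0.49 ± 0.08 (adjusted p = 0.00445). These were the 2 calls among 13 measured glucocorticoid targets (median -0.13). Slc30a1, a zinc exporter, rose by 0.65 ± 0.13 (adjusted p = 0.0119), 1 rise beside the fall of Tfrc among 10 metal handling genes. Hsd3b5, a steroid enzyme of male liver, fell by 0.50 ± 0.11 (adjusted p = 0.0189), the 1 call among 13 male-biased genes, lost with all 35 arrays in the fit. Ppara, the fatty acid sensor, which was named on its own and is in no list, rose by 0.53 ± 0.12 (adjusted p = 0.0324), with all 3 of its probe sets called. The call was lost without any 1 of 12 of the 18 arrays (highest adjusted p = 0.0945).

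**Figure D3:**
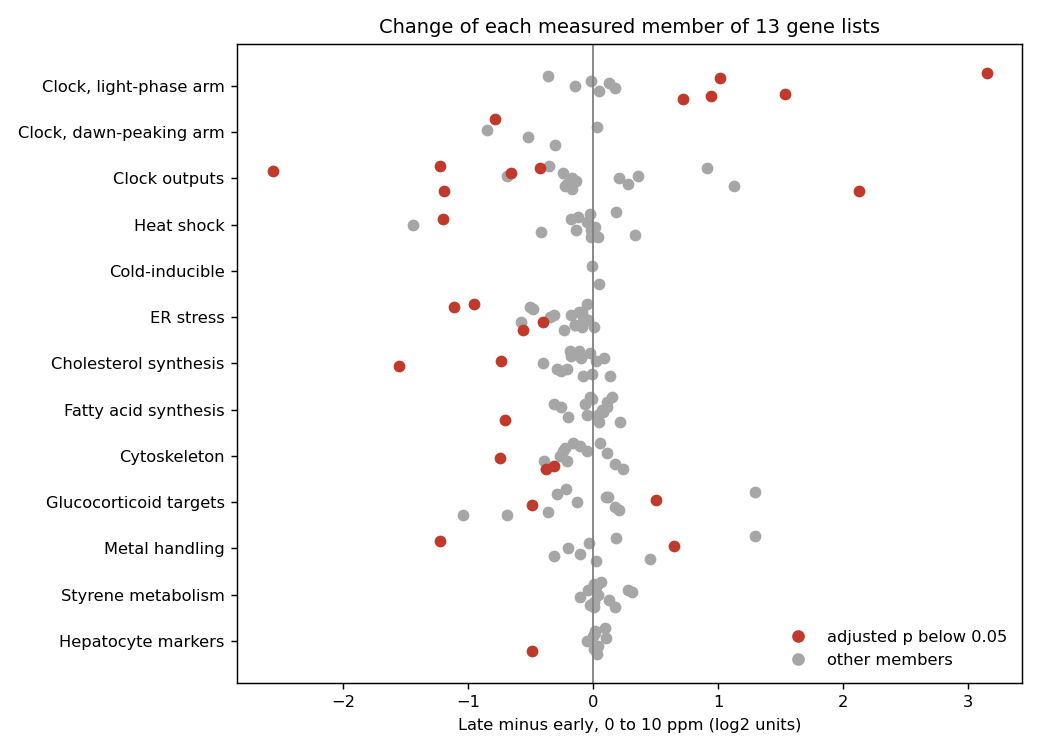
Late minus early (log2 units) of each measured member of 13 gene lists, with called members in red and the others in grey. Red points lie to the right for the light-phase arm of the clock (5 of 11) and to the left for the unfolded protein response (4 of 20), while the styrene metabolism list has none.

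On the brightest probe set of each gene, no member was called in 14 of the 27 pathway lists, among them PPARA targets, bile acid genes, acute phase genes, targets of CAR and PXR, NRF2 targets, cell cycle, p53 and interferon genes, and ribosomal proteins. Other probe sets of these genes were not counted. With every probe set counted, 447 genes had a call, against 375 on the brightest. None of the 13 genes of styrene metabolism was called, and their changes ran from -0.10 to 0.31. Cyp2e1, the main oxidase of styrene, was between 13.27 and 13.46 in early and between 13.22 and 13.39 in late arrays, with a change of 0.01 ± 0.05 (SE, limma adjusted p = 0.972). Cyp7a1, the rate-limiting enzyme of bile acid synthesis and a rhythmic gene, was between 5.39 and 8.04 in early and between 3.01 and 8.06 in late arrays, and its change of -1.40 ± 0.48 did not pass (adjusted p = 0.201). Pck1, an enzyme of glucose synthesis, changed by -0.12 ± 0.07 on a probe set near 3. Among the 13 marker lists, 12 had no call and the hepatocyte list had Tat alone. The lung marker sum reached 9.93 in 1 late air mouse, animal 6, against 5.62 to 7.52 in early arrays.

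The same split was made at 20, 40 and 120 ppm, where it gave 4 early arrays (animals 33, 34, 43 and 49) and 9 late arrays. The early arrays included 1 mouse each at 40 and 120 ppm. There 3 probe sets were called (0.00666%), 2 higher (0.00444%) and 1 lower (0.00222%), with 3323 at an unadjusted p under 0.05. One named Id3, an inhibitor of DNA binding that changed by 1.38 ± 0.18 (SE, limma adjusted p = 0.0327), and by 0.26 at 0 to 10 ppm (adjusted p = 0.849). One named Gpr146, an orphan receptor, and changed by 0.83 ± 0.12 (adjusted p = 0.0327), and by 0.59 at 0 to 10 ppm (adjusted p = 0.0173). It is not the brightest probe set of Gpr146, which changed by 0.54 here without a call, and by 0.72 at 0 to 10 ppm (limma adjusted p = 0.00518). The last of the 3 called probe sets, which named no single gene, changed by -2.27. The test of the difference between the dose ranges called 0 probe sets in limma, with 3211 at an unadjusted p under 0.05.

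The 2 dose ranges share no array. Of the 375 genes called at 0 to 10 ppm, 319 (85.1%) had the same sign at 20 to 120 ppm, against 52.5% of all 17097 genes. The median size without regard to sign was 0.52 in the lower and 0.197 in the higher range. The genes were chosen for their change in the lower range, which alone makes the size larger there, and 0 of the 375 passed the test of the difference. In the higher range 130 of the 375 (34.7%) had the same sign and an unadjusted p under 0.05, against 836 of all genes (4.89%). Ppargc1b changed by 1.12 ± 0.24 there, Clec2h by 1.28 ± 0.35, Bcl6 by -1.85 ± 0.52, Mvd by -1.17 ± 0.35 and Noct by -1.06 ± 0.37. Others among the largest rises and falls changed little there: Gm16551 by 0.015 ± 0.25, Nrep by 0.025 ± 0.48, Retreg1 by 0.20 ± 0.17 and Tef by 0.21 ± 0.15. The list of the unfolded protein response had a median of -0.04 there, and 12 of its 20 genes kept their sign. The cytoskeleton list had a median of 0.09, and 7 of its 15 kept their sign. Rgs16 changed by -0.60 ± 0.33, against 2.13 at the lower doses. Hsd3b5 changed by 0.87 ± 0.38, against -0.50. Neither difference passed after adjustment over all probe sets.

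Dbp in the higher range was already high in most early arrays. It was 4.28 and 7.24 in the early mice at 20 ppm, 8.03 in that at 40 ppm and 7.06 in that at 120 ppm. The 9 late arrays lay between 6.42 and 9.15, and 14 of the 15 arrays above 10 ppm exceeded the highest early value of the lower doses, 5.49. The late minus early change there was 1.24 ± 0.51 (SE), against 3.15 at 0 to 10 ppm.

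**Figure D4:**
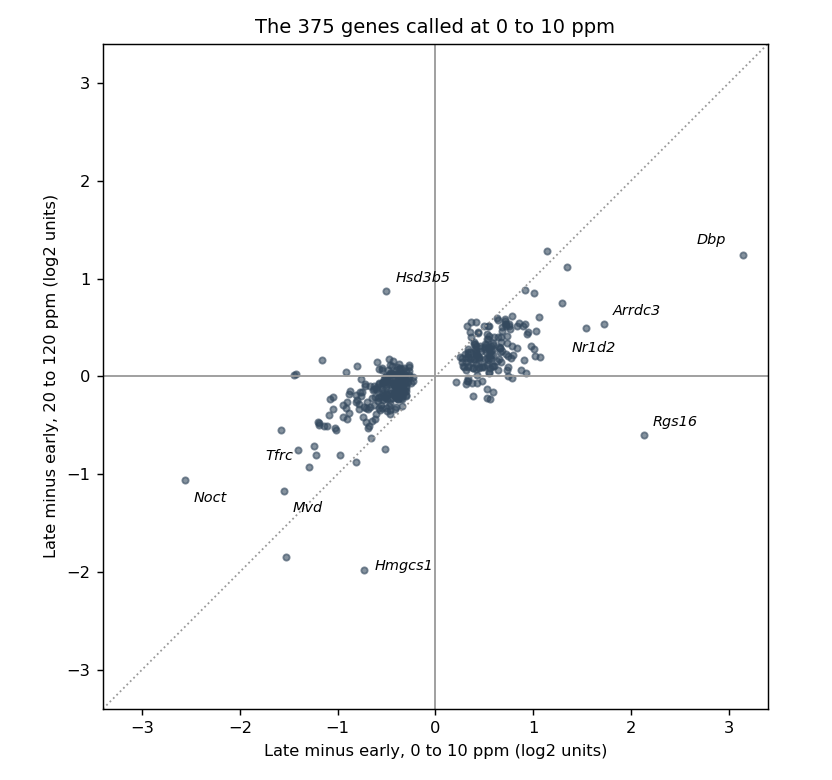
Late minus early at 20 to 120 ppm against the same at 0 to 10 ppm (both in log2 units) for the 375 genes called at the lower doses, 1 point per gene. The dotted line marks equal values. Most points share their sign (319 of 375) but lie closer to 0 on the vertical axis, and Rgs16 and Hsd3b5 have opposite signs.

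The animal number was not balanced over doses. The mean place of the 5 mice in their group, counted from 1 to 8, was 4, 3.6, 4.2 and 4 at 0, 1, 5 and 10 ppm and 4.8, 5 and 4.8 at 20, 40 and 120 ppm. The genes of the clock's light-phase arm and Noct are given with their change between 120 ppm and air, and the dawn-peaking arm is left out here. That comparison shares the air arrays with the one of late and early, so the values are set side by side only. Dbp had 3.15 late against early and 3.46 at 120 ppm against air, Nr1d2 had 1.54 and 1.57, Tef 1.02 and 1.74, and Per3 0.95 and 2.17. Members that were not called late against early had changes at 120 ppm of 2.77 (Ciart), 2.71 (Usp2), 1.24 (Hlf), 1.13 (Per2) and 1.07 (Per1), all of which passed, and of 0.09 (Bhlhe41), which did not (limma adjusted p = 0.544). Bhlhe40 and Noct, called late against early at 0.72 and -2.56, had 0.02 and 0.42 at 120 ppm, neither of which passed (limma adjusted p = 0.962 and 0.73).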

How the data were processed

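The authors deposited 1 table of log2 values, with a row for each probe set and a column for each array. Per the submitters' processing notes it was made with RMA and Partek, with no version given. The base of the logarithm was inferred from the range of the values, 1.74 to 14.23, and folds rest on that. The platform annotation gave 28898 probe sets 1 gene symbol, 551 several and 15588 none. The 104 control probe sets were left out. Models were fitted in R 4.3.3 with limma 3.58.1 (lmFit and eBayes) with dose as a block, on the 18 arrays and separately on the 13 of the higher doses. Figures were drawn with matplotlib 3.10.9.

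The members, lists and tests were chosen with earlier results of these data known. Of the 40 gene lists (547 genes, 471 measured), each was described by counts and its median. Genes were named by a rule: the 12 largest rises and falls among called genes, every member of the clock arms, heat shock and cold lists, up to 4 members with the smallest p of each other list, and some genes of metabolism. Srebf1, which the rule also names, had no probe set of its own here and was not analysed. Single values per array were tested over all 3600 arrangements of late and early within doses. In simulated data with 200 changed probe sets, the test at 0 to 10 ppm recovered 98% of changes of 1 log2 unit and 76% of changes of 0.5 (13 of 187 calls were false). At 20 to 120 ppm it recovered 96% and 47%. The simulated noise was independent between probe sets, whereas the real arrays share differences across many probe sets (33.5% of the variance on the first principal component). These rates may therefore not hold for the data. The number of arrays limits the precision. Scan or extraction dates are not given in the sources used here. Alternatives varied the scaling, the dim probe sets, the block, the place of numbers 20 and 28, the weights and the arrays used.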

Additional observations from a re-analysis of the deposited data

Results flagged for a closer look

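In 12 of 140 checks (70 genes in early and in late arrays), 1 array lay far from the others of its set by Dixon's test, which flags about 1 in 20 such sets by chance. Animal 27, the second early mouse at 10 ppm, was highest for Tef (8.55, next 7.77) and Usp2 (6.81, next 5.92) and lowest for Npas2 (3.62, next 5.04). All 3 are clock genes. Animal 30, the last late mouse at 10 ppm, was lowest for Clec2h (6.15, next 7.16) and Cyp2e1 (13.22, next 13.33) and highest for Nrep (6.69, next 6.01) and Stip1 (9.01, next 8.67). Animal 2, an early air mouse, was highest for Cirbp (6.09, next 5.16) and Slc45a3 (9.36, next 8.67). Single flags fell on Ppargc1b in early animal 9 (5.53), Atf4 in late animal 15 (8.98) and Tubb2a in late animal 8 (9.21).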

How the results depend on the processing

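The count of 713 probe sets stayed between 488 and 1062 when each of the 18 arrays was left out, and was 731 after centring arrays on their medians and 767 without animals 17 and 27, an alternative chosen after seeing the data. It was 1071 with array weights and 1120 with all 35 arrays in the fit. It was 198 without the air arrays, 269 without 5 ppm and 377 without 10 ppm, and these fits hold fewer arrays. Within single doses it was 1 (air), 0 (1 ppm), 2 (5 ppm) and 0 (10 ppm), where limma gave unadjusted p under 0.05 to 2379, 2011, 4105 and 3701. The single-dose values are contrasts of 1 fit to all 18 arrays, which share its estimate of the spread, and each compares only the mice of its dose. At 20 to 120 ppm the count of 3 was 7 after centring and between 0 and 30 when each array was left out, 0 without animal 33, 45, 47 or 56 and 30 without animal 38. Both tests of a difference (among doses and between dose ranges) called 0 in limma after centring too (1718 and 3111 had an unadjusted p under 0.05). Of 42 called genes named, all 42 kept their call under both scalings, and none of the 42 changed sign under any alternative. In the 28 other named genes a change of sign was counted only where an alternative called the gene, and there was none. Changes of sign without a call were not counted, such as that of Per1, at 0.16 within 1 ppm against -0.36 over the 4 doses. All 35 arrays in the fit lost 6 (Bcl6, Slc45a3, Hmgcs1, Manf, Tubb2a and Hsd3b5), the slope on place lost 5 (Bhlha15, Bcl6, Nrep, Tfrc and Manf), and leaving out 0, 1, 5 or 10 ppm lost 22, 11, 17 and 13. Taking numbers 20 and 28 as early lost 5 of the 42 (Bhlha15, Bcl6, Bhlhe40, Ddit3 and Manf), and taking them as late lost 9 (Arrdc3, Tfrc, Alas1, Per3, Nfil3, Slc45a3, Tat, Tuba1c and Ppara). Of the 28 others, Npas2 and Hspa1b gained a call with brighter probe sets only, array weights or an intensity-dependent prior. Both also gained it with numbers 20 and 28 as early and with the slope on place. Cry1 gained one with the slope, Cyp7a1 with array weights, and Arntl, Npas2 and Cyp7a1 without animals 17 and 27. None of the 28 gained one under either scaling, without the dose block or with all 35 arrays. Dbp was the 1 named gene called within air alone and within 5 ppm alone. The cause of these changes was not tested. No paired analysis was possible, because each array is a different mouse and the labels match no early mouse to a late one.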

Other observations

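Several called genes of ribosome assembly in the nucleolus were lower in late arrays. They were picked after their values were seen and do not describe the whole group. Of 8 measured genes whose symbols begin with Nop, 3 were called lower (Nop56, Nop2 and Nop16) and all 8 had a change below 0 (median -0.31), while of 8 whose symbols begin with Utp, 1 was called lower (Utp4), with 4 changes below and 4 above 0 (median -0.05). Over all genes 1.23% were called lower and 48.3% had a change below 0. Nolc1, a nucleolar phosphoprotein, fell by 0.90 ± 0.13 (SE, limma adjusted p = 0.00172), Nop56 by 0.81 ± 0.12, and Rrn3, an initiation factor of RNA polymerase I, by 0.77 ± 0.14. Srm, spermidine synthase, fell by 0.76 ± 0.12 and Odc1, the first enzyme of polyamine synthesis, by 0.38 ± 0.08. Of the 20 measured ribosomal proteins none was called. At 20 to 120 ppm Nolc1 changed by -0.43 and Srm by -0.02.

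Some called genes of glycosylation and the endoplasmic reticulum were picked in the same way. Of 11 measured genes whose symbols begin with Alg, 2 were called lower (Alg2 and Alg12), against 1.23% of all genes. Their changes lay below 0 in 7 and above 0 in 4 (median -0.07). Of 8 that begin with Cog, 2 were called lower (Cog3 and Cog8), with 4 below and 4 above 0. Ficd, which modifies the chaperone BiP, fell by 1.19 ± 0.18 (SE, limma adjusted p = 0.00214), Alg2, a mannosyltransferase, by 1.09 ± 0.16, and Wfs1, a membrane protein of the reticulum, by 0.81 ± 0.11. Among autophagy and lysosome genes, 4 that were called higher are given, chosen for their rise. Tsc1, which restrains mTOR, rose by 0.66 ± 0.08 (adjusted p = 0.000302), Ulk1, the kinase that starts autophagy, by 0.65 ± 0.08, Flcn, folliculin, by 0.63 ± 0.12, and Npc1, which exports cholesterol from lysosomes, by 0.55 ± 0.08. The 16 measured genes whose symbols begin with Atg had 8 changes above and 8 below 0, with Atg14 as the 1 call (0.965% of all genes were called higher).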
